A study of Mus musculus with 9 samples.

Results

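The 10 genes described here encode proteins of the secondary (specific) and tertiary (gelatinase) granules of neutrophils, namely Camp, Ngp, Ltf, Lcn2, Fcnb, Chi3l3, Mmp8, Mmp9, Retnlg and Hp. They were chosen by symbol from what is known of granule content, and are 10 of the 15265 genes in the count tables. No measured value set the choice, but it was made with earlier results of these data known. All 10 were present in every library. Their levels were compared between neutrophil stages, between libraries and between genotypes.

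Single-cell RNA profiles of unselected bone marrow from C57BL/6 mice aged 2 to 3 weeks had been made by Drop-seq, which tags the RNA of each cell in a droplet with the barcode of a bead. Of the 9 libraries, 4 came from NG2-cre/Pot1a fl/fl mice, in which Pot1a, a telomere-binding protein, is deleted where the NG2 (Cspg4) promoter drives Cre, and 5 from NG2-cre/Pot1a wt/wt mice, which carry the same Cre and intact Pot1a. NG2 marks mesenchymal cells of the marrow, so the neutrophils counted here are not the cells in which Cre was directed to act. The study states that this Cre acts in pericytes throughout the body. It also states that NG2-cre/Pot1a fl/fl mice had retarded growth and became moribund within weeks of birth. The comparison asks how marrow cells differ between these mice and mice with intact Pot1a. Effects of the marrow mesenchymal cells and of the state of the whole animal cannot be told apart in it. Labels do not say which mouse a library came from, and the mice stated for each genotype are fewer than its libraries, so some libraries may share a mouse and p-values measure only how libraries vary, technical variation included.

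Neutrophils load their granules in waves as they mature in the marrow. Promyelocytes make the proteases of primary granules, such as myeloperoxidase and elastase. Myelocytes and metamyelocytes then make the antimicrobial proteins of secondary granules, and the later stages make the gelatinase and other content of tertiary granules. Tertiary granules are released more readily than secondary granules when the cell leaves the blood. Each wave is set mainly by which genes are transcribed at that stage, and the C/EBP factors and PU.1 (gene Spi1) bind near many of these genes. Mice without C/EBP epsilon (gene Cebpe) lack most secondary granule proteins.

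Camp (cathelicidin, the precursor of an antimicrobial peptide), Ngp (neutrophilic granule protein, a relative of cathelicidin and cystatin) and Ltf (lactoferrin, an iron-binding protein) lie within 1195 kb of each other on chromosome 9 of GRCm38, at 109847377 to 109849456, 110419808 to 110423012 and 111019292 to 111042766. Mmp8 (neutrophil collagenase) lies elsewhere on chromosome 9, at 7558429 to 7568486. Chromosome 2 carries Fcnb (ficolin B, a lectin that can start complement), Lcn2 (lipocalin 2, which binds bacterial siderophores) and Mmp9 (gelatinase B). Chi3l3 (the chitinase-like lectin Ym1, Chil3 in RefSeq) is on chromosome 3, Hp (haptoglobin, which binds free haemoglobin) on chromosome 8 and Retnlg (resistin-like gamma, a secreted protein) on chromosome 16.

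The 250 bases before the start of transcription were read from RefSeq (GRCm38.p6) for the 8 of 10 genes with an entry there. Motifs were searched on both strands, with N for any base. C/EBP was represented by TTGCNNAA, its reverse complement TTNNGCAA, and TTNNGNAAT, which can overlap them, and PU.1 by AGAGGAA and GAGGAAGT. A C/EBP match was found in 7 of the 8 promoters, all but that of Camp, and in 16.97% of 32851 promoters of all genes. TTGCNNAA alone matched 6 of the 8 and 9.56% of all promoters, and TTNNGNAAT matched 3 of the 8 and 10.16% of all. A PU.1 match was found in 1 of the 8 (Mmp8) and in 10.06% of all promoters. These are matches of letters, and binding was not measured. The promoters of 4 genes are printed 5′ to 3′ because the stage values below turn on these genes, with motif matches in capitals: Camp without a match, Ngp as a secondary granule gene close to Camp in place and level pattern, Fcnb as the gene lowest in late relative to myelocyte-like cells, and Mmp8 as the gene with the largest fold between these stages.
Camp promoter, chr9:109849457-109849706, minus strand: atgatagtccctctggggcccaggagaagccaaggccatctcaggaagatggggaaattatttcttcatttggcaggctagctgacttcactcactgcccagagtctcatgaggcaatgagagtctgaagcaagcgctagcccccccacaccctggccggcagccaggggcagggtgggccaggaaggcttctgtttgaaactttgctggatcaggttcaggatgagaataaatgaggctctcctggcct
Ngp promoter, chr9:110419558-110419807, plus strand: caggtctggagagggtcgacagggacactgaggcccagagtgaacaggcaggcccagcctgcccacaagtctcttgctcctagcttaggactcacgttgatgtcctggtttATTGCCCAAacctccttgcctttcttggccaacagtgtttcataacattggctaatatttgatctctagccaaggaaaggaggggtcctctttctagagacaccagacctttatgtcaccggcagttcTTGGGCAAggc
Fcnb promoter, chr2:28084879-28085128, minus strand: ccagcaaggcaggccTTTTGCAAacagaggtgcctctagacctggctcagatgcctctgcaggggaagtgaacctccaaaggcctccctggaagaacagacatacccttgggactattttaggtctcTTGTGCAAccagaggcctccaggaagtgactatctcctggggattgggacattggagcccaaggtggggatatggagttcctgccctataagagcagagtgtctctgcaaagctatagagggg
Mmp8 promoter, chr9:7558179-7558428, plus strand: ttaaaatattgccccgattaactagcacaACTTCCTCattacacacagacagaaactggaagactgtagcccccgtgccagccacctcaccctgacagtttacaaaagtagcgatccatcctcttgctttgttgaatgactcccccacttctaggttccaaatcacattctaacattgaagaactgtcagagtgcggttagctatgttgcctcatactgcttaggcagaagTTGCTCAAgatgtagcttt

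In the Ngp promoter the nearest C/EBP match ended 4 bases before the start, and in the Mmp8 promoter it ended 12 bases before. Those of Fcnb ended 116 and 228 bases before the start. The only PU.1 match, in Mmp8, lay 214 to 221 bases before the start.

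Each library held 100 barcodes, and 899 of 900 cells were kept (at least 200 counts and at most 25% mitochondrial). Library totals were 119459 to 465277 counts, with a median of 955.5 to 3704 counts per cell. Pot1a wt/wt 2 and 3 shared 19 barcodes with near-identical counts, so part of their cells stood in both tables, and the fits in whole marrow, in granulocyte-like cells and in myelocyte-like and late cells together, the shares of cells and the levels by stage were also computed with the pair as 1 library. No other pair of the 36 shared a barcode. By counts of Xist and of Y-linked genes, Pot1a fl/fl 2 and Pot1a wt/wt 2 and 3 were male and the other libraries female. Over all cells the 10 genes had 36384 (Camp), 13921 (Ngp), 3302 (Ltf), 3685 (Lcn2), 1856 (Fcnb), 1899 (Chi3l3), 639 (Mmp8), 109 (Mmp9), 1632 (Retnlg) and 727 (Hp) counts, so that values of Mmp9 in particular rest on few counts. Pot1a itself gave 1 to 15 counts in Pot1a fl/fl and 2 to 10 counts in Pot1a wt/wt libraries, too few to check the genotype labels, as the deletion is directed to other cells than most of those profiled.

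Cells were clustered without the 10 genes, so that stages could be set without them, and clusters were named from other markers. Granulocyte-like cells, 321 in all, fell into 3 clusters, beside B-lineage, erythroid, monocyte/macrophage, mesenchymal and unnamed clusters. The promyelocyte-like cluster (120 cells) was led by Ctsg, Mpo and Elane, all primary granule proteases or enzymes. On average, counts of mast cell and basophil markers among granulocyte-like cells, given below, lay mostly in this cluster. The myelocyte-like cluster (116 cells) was led by the stefins Stfa1 and BC100530, with Pglyrp1 and Cebpe also among its 10 leading genes, and held 10 markers of its own stage and 4 of the late stage among its 50 leading genes. The late neutrophil-like cluster (85 cells) was led by 2010005H15Rik, Cxcr2, the chemokine receptor of mature neutrophils, and Stfa2. Cells of this last cluster had the fewest counts, a median of 1592, against 2542.5 in myelocyte-like and 2805 in promyelocyte-like cells. Because clusters are built from the same cells, levels by stage are given below as a description without a test, as CPM (counts in every 1000000 counts of that stage), as mean ± SD over libraries with at least 10 cells of it (7 libraries for promyelocyte-like, 5 for myelocyte-like and 5 for late cells).

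The 4 antimicrobial proteins of secondary granules were low in promyelocyte-like cells and high in myelocyte-like cells. Camp was at 5258 ± 2476 CPM in promyelocyte-like, 75757 ± 10192 CPM in myelocyte-like and 63945 ± 17365 CPM in late cells. Ngp was at 756 ± 443, 28620 ± 2986 and 27948 ± 6803 CPM in the same order of stages. The mean of Camp was 14.4 times and that of Ngp 37.9 times higher in myelocyte-like than in promyelocyte-like cells, and both were higher in myelocyte-like cells in 9 of 9 libraries. Between the last 2 stages neither differed by more than the spread between libraries, and late cells were above myelocyte-like cells in 3 of 9 libraries for Camp and 5 of 9 for Ngp.

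Ltf and Lcn2, which deprive bacteria of iron, had their highest level in late cells. Ltf was at 134 ± 105, 5834 ± 1448 and 9121 ± 1982 CPM in promyelocyte-like, myelocyte-like and late cells. In each of the 9 libraries Ltf was higher in late than in myelocyte-like cells: 7894, 7531, 11486 and 11903 CPM in late cells of Pot1a fl/fl 1 to 4, against 4942, 4937, 4479 and 4092 CPM in their myelocyte-like cells. The same held in Pot1a wt/wt 1 to 5, with 7734, 10543, 13598, 7463 and 7569 CPM in late cells against 7445, 6971, 7367, 2536 and 2500 CPM in myelocyte-like cells. Pot1a wt/wt 1 had nearly the same level at both stages. Lcn2 was at 248 ± 140, 6578 ± 1051 and 8888 ± 1606 CPM by stage and was also higher in late cells in 9 of 9 libraries, with a mean 1.35 times that of myelocyte-like cells.

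The 2 carbohydrate-binding proteins had their highest level earlier. Fcnb was at 1117 ± 570 CPM in promyelocyte-like, 3914 ± 1349 CPM in myelocyte-like and 743 ± 486 CPM in late cells. In promyelocyte-like cells its mean was above those of Ngp, Ltf and Lcn2 and below that of Camp (5258 CPM). Late cells had 397, 1049, 589 and 1362 CPM in Pot1a fl/fl 1 to 4, against 4042, 3894, 5301 and 2718 CPM in their myelocyte-like cells. In Pot1a wt/wt 1 to 5, Fcnb was at 154, 756, 984, 1371 and 554 CPM in late cells and 1713, 2662, 4620, 3698 and 4318 CPM in myelocyte-like cells. Fcnb was thus higher in myelocyte-like cells in all 9 libraries, and the lowest myelocyte-like value was above the highest late value. The mean was 5.26 times higher in myelocyte-like than in late cells. Chi3l3 was at 151 ± 217, 3978 ± 1129 and 2809 ± 1796 CPM by stage, with late cells above myelocyte-like cells in 3 of 9 libraries, so the order of its last 2 stages is within the spread. Its near copy Chi3l4 (transcripts 94.7% identical over 1535 aligned bases) had 1 count in late cells and 11 in myelocyte-like cells, and how reads were divided between the pair is uncertain.

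Mmp8, Mmp9 and Retnlg were genes of the late cluster. Mmp8, which cleaves fibrillar collagen, was at 61.3 ± 55.4, 143 ± 71.9 and 3084 ± 2226 CPM in promyelocyte-like, myelocyte-like and late cells, a late mean 21.6 times that of myelocyte-like cells. Late cells had 3969, 620, 2503 and 2679 CPM of Mmp8 in Pot1a fl/fl 1 to 4 and 6402, 1749, 5189, 3199 and 2215 CPM in Pot1a wt/wt 1 to 5. No library had more than 250 CPM of it in myelocyte-like cells, so these stages did not overlap. Mmp9, the enzyme that gives gelatinase granules their name, was at 29.4 ± 60.9, 58.2 ± 65.9 and 507 ± 271 CPM by stage and was higher in late cells in 9 of 9 libraries, although only 69 counts lay in late and 14 in myelocyte-like cells.

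Retnlg was high in the late cells of most libraries but not of all. It was at 437 ± 319, 522 ± 294 and 6727 ± 5253 CPM by stage, 12.9 times higher on average in late than in myelocyte-like cells. Late cells held 209, 107, 2 and 73 Retnlg counts in Pot1a fl/fl 1 to 4 and 285, 32, 90, 46 and 38 counts in Pot1a wt/wt 1 to 5. Pot1a fl/fl 3, the shallowest library, was far below the rest, with those 2 counts spread over 2 of its 9 late cells, which had a median of 797 counts per cell. It was the exception among 9 libraries, since Retnlg was higher in late than in myelocyte-like cells in the other 8. Hp was at 336 ± 121, 855 ± 195 and 1173 ± 410 CPM, and its late level was above that of myelocyte-like cells in 4 of 9 libraries only.

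By these means 6 of the 10 genes were highest in late cells (Ltf, Lcn2, Mmp8, Mmp9, Retnlg and Hp) and 4 in myelocyte-like cells. For Camp, Ngp, Chi3l3 and Hp the highest of the last 2 stages was not set beyond the spread between libraries.

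**Figure D1:**
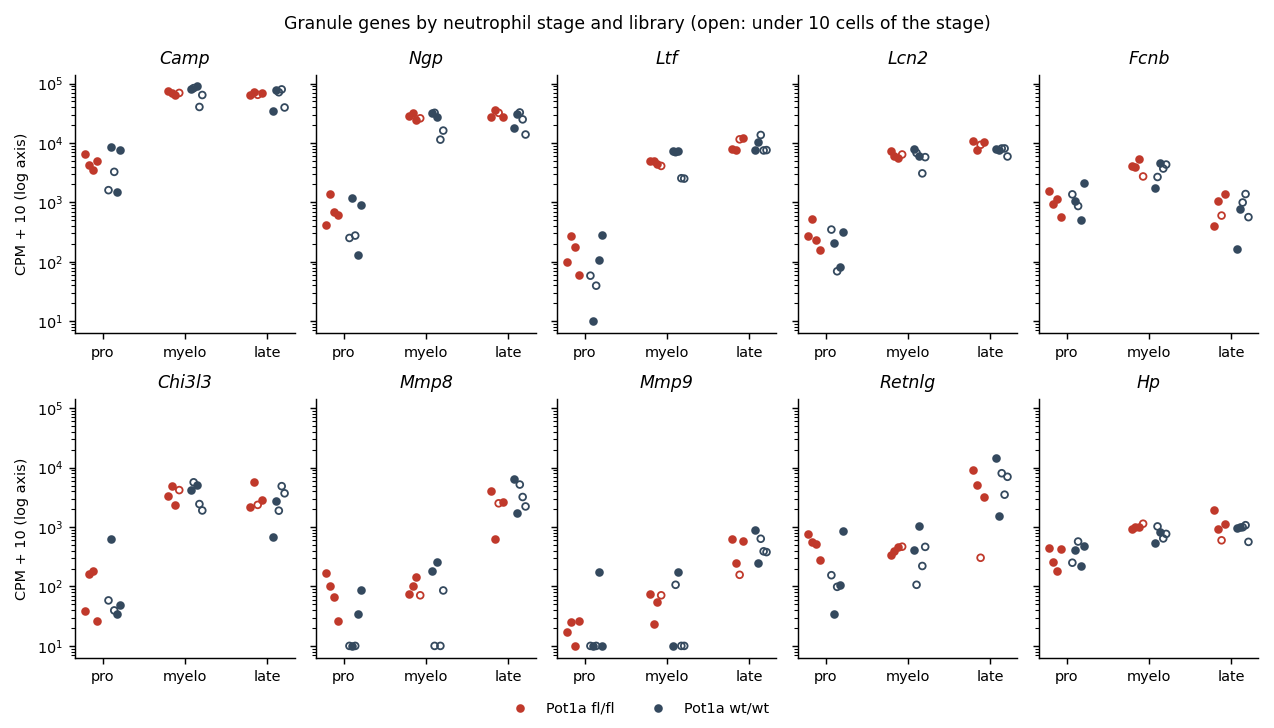
Level of each granule gene (CPM + 10 of the counts of the stage, log axis) in promyelocyte-like (pro), myelocyte-like (myelo) and late neutrophil-like (late) cells, with 1 point for each library, red for Pot1a fl/fl and dark blue for Pot1a wt/wt. Open points are libraries with under 10 cells of the stage. Mmp8, Mmp9 and Retnlg had their highest means in late cells, and Fcnb was higher in myelocyte-like than in late cells in all 9 libraries.

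The transcription factors named beside these genes are given over all cells of a stage, without a spread between libraries or a test. Cebpe was itself among the leading genes of the myelocyte-like cluster, so its peak there is not independent of the clusters. Cebpe had 58, 138 and 42 counts in promyelocyte-like, myelocyte-like and late cells, or 131, 437 and 292 CPM over all cells of the stage. Spi1 was at 261, 301 and 376 CPM by stage (115, 95 and 54 counts). Gfi1, a repressor needed for neutrophil maturation, had 23, 4 and 3 counts by stage, or 52.1, 12.7 and 20.9 CPM, too few to order the last 2 stages. Among B-lineage cells Cebpe had 3 counts (4.77 CPM).

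Most of the message of these genes lay in granulocyte-like cells. These cells held 94.6% of Camp, 93.4% of Ngp, 92.7% of Ltf, 92.0% of Lcn2, 93.4% of Fcnb and 91.8% of Chi3l3 counts. The shares were smaller for Mmp8 (81.2%), Mmp9 (85.3%), Retnlg (74.0%) and Hp (82.8%). Monocyte/macrophage-like cells held 10.5% of the Hp counts and 7.36% of the Mmp8 counts. Promyelocyte-like cells held 26.7% of Fcnb and 22.7% of Hp counts, against 1.45% of Ltf counts.

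To compare how many of the 10 genes a cell showed, cells were thinned to 1000 counts each, and cells below that depth were left out (58 of 400 in Pot1a fl/fl and 52 of 499 in Pot1a wt/wt). A median of 2 of the 10 genes was detected in promyelocyte-like cells (108 cells), 7 in myelocyte-like cells (106) and 7 in late cells (69). B-lineage (201) and erythroid (142) cells, which do not make granules, had a median of 1 each and are taken here as the background. Where their counts of these genes came from was not tested. Without thinning the medians were 4, 7 and 8 by stage and 2 in B-lineage and in erythroid cells. The 10 genes made up a median of 12.8% of the thinned counts of both myelocyte-like and late cells, up to 21.7% in a single late cell, and 0.1% in B-lineage cells.

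Detection of single genes followed the stage levels. Mmp8 was detected in 3.70% of promyelocyte-like, 5.66% of myelocyte-like and 55.1% of late cells (95% exact binomial interval 42.6 to 67.1%), against 5.47% of B-lineage cells (2.76 to 9.58%), so at the first 2 stages it was no more frequent than this background. Mmp9 was found in 31.9% of late cells (21.2 to 44.2%) and 0.498% of B-lineage cells. Intervals cover counting error only. Fcnb was detected in 32.4% of promyelocyte-like, 89.6% of myelocyte-like and 29.0% of late cells and 2.99% of B-lineage cells. Camp was detected in 100% of myelocyte-like and late cells and 63.0% of promyelocyte-like cells, but also in 54.7% of B-lineage cells. Its level over libraries was 5258 ± 2476 CPM in promyelocyte-like and 1396 ± 1168 CPM in B-lineage cells, so its mean was above this background. By detection, Chi3l3 (2.78% of promyelocyte-like against 3.98% of B-lineage cells) and Ngp (35.2 against 32.8%) were close to background in promyelocyte-like cells.

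Retnlg, Hp, Mmp8 and Mmp9 were higher relative to Camp outside the granulocyte-like clusters than in myelocyte-like and late cells. Retnlg was detected in 59.4% of late, 28.3% of myelocyte-like and 17.4% of B-lineage cells. For each 100 Camp counts there were 3.15 Retnlg counts in myelocyte-like and late cells together, against 21.5 in cells outside the granulocyte-like clusters. By library the ratio was 0.645 to 6.70 in myelocyte-like and late cells and 14.5 to 35.1 outside the granulocyte-like clusters, so the ranges did not overlap. Hp was at 1.36 per 100 Camp counts in myelocyte-like and late cells and 6.34 outside, Mmp8 was at 1.51 in these cells and 6.09 outside, and Mmp9, on 16 counts outside, was at 0.258 in these cells and 0.812 outside. Outside the granulocyte-like clusters, the ratio to Camp was thus 6.83 times higher for Retnlg, 4.67 for Hp, 4.03 for Mmp8 and 3.14 for Mmp9, and 1.17 (Ngp) to 1.61 (Fcnb) times higher for the other 5 genes than in myelocyte-like and late cells. Of the counts outside these clusters, monocyte/macrophage-like cells held 76 of 125 for Hp, 47 of 120 for Mmp8 and 76 of 122 for Fcnb. They held 35 of 424 for Retnlg and 0 of 16 for Mmp9, beside 133 of 1971 for Camp. Where the counts outside the granulocyte-like clusters came from was not tested.

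**Figure D2:**
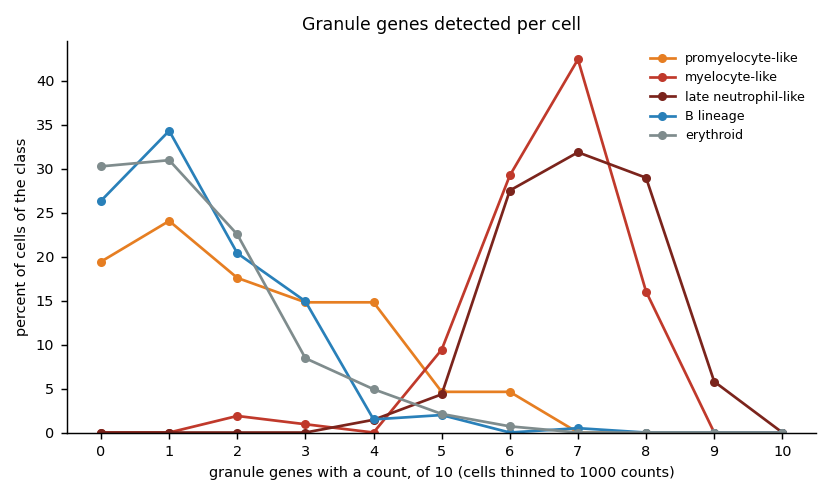
Number of the 10 granule genes with at least 1 count (x axis) in cells thinned to 1000 counts, as percent of the cells of a class (y axis), with 1 line for each class. Myelocyte-like and late cells peak at 7 genes, B-lineage and erythroid cells at 1, and promyelocyte-like cells reach at most 6.

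Within the late cluster cells were far from alike. Camp per 10000 counts had a median of 641.7 in 85 late cells, from 20.5 in the lowest to 1460.7 in the highest. Retnlg had a median of 12.5, with 25 cells at 0 and a highest value of 819.2. The median of Fcnb was 0 in late cells and 31.5 per 10000 counts in myelocyte-like cells, of which 10 of 116 were at 0. Mmp8 was at 0 in 33 of 85 late and 96 of 116 myelocyte-like cells.

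Correlations between the genes over the 321 granulocyte-like cells are given as a description, since cells of a library share its depth and the stages set much of the pattern. Camp and Ngp were the closest pair (Pearson r = 0.91 on log2 counts per 10000 plus 1), and Ngp was also close to Lcn2 (0.88), Ltf (0.85) and Chi3l3 (0.77). Mmp8 paired with Retnlg (0.63) and Mmp9 (0.55). Fcnb had negative values with the late genes, with r of -0.33 with Mmp8, -0.27 with Retnlg and -0.25 with Mmp9. Among the 85 late cells alone the genes split further. There Camp had negative values with Retnlg (-0.62) and Mmp8 (-0.56), while Retnlg and Mmp8 (0.64) and Camp and Ngp (0.82) had positive ones. In the 116 myelocyte-like cells Camp and Ngp had r = 0.72, and Fcnb and Ngp had -0.06.

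**Figure D3:**
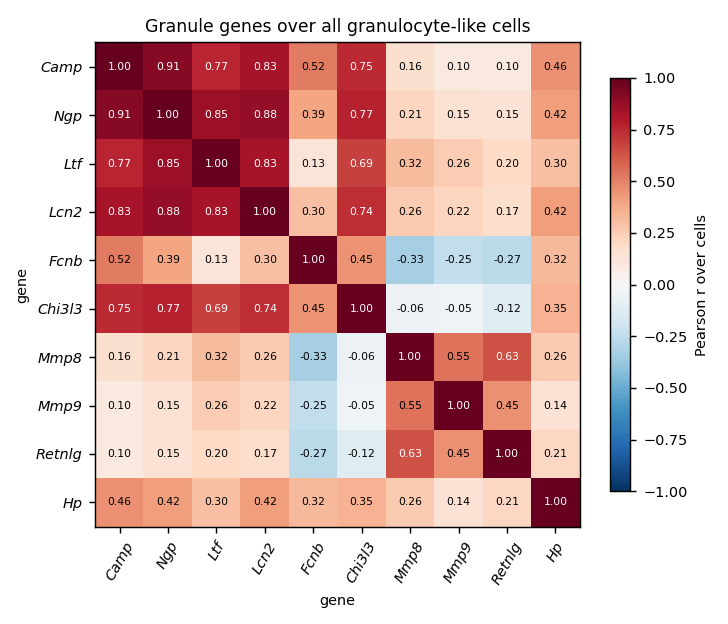
Pearson correlation of log2(counts per 10000 + 1) between the 10 granule genes over 321 granulocyte-like cells, with both axes listing the genes and colour running over r from -1 (blue) to 1 (red). Camp, Ngp, Ltf, Lcn2 and Chi3l3 form a block with r of 0.69 to 0.91, Mmp8, Mmp9 and Retnlg a second one with r of 0.45 to 0.63.

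Among 5882 other genes, those most like each granule gene were sought over 46 sums of a cluster in a library (Pearson r of log2 CPM + 50, at least 10 cells each). These sums share libraries, and r over them is a description. S100a9, a calcium-binding protein of the neutrophil cytosol, was closest to Camp (0.98) and Ngp (0.96). The stefin BC100530 was closest to Ltf (0.94) and Ifitm6 to Lcn2 (0.96). Fcnb was closest to the inhibitory receptor Clec12a (0.91), Chi3l3 to the activin subunit Inhba (0.92) and Hp to Ncf1 (0.94), a subunit of the NADPH oxidase. Mmp8 was closest to Thbs1 (0.88), Mmp9 to Cxcr2 (0.82), a leading gene of the late cluster, and Retnlg to Gp49a (0.80). The summed CPM of the 10 genes was closest to S100a9 (0.99), S100a8 (0.98), Anxa1 (0.95), 1100001G20Rik (0.95) and BC100530 (0.93).

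In whole marrow, the secondary granule genes had higher means in Pot1a fl/fl libraries, and no gene of the 10 passed the test. Sums over all cells mix the share of neutrophils among the cells with the message per neutrophil. More neutrophils, fewer other cells and more RNA in each neutrophil cannot be told apart in them. The sum of the 10 genes was 2.75, 4.74, 2.98 and 2.01% of all counts in Pot1a fl/fl 1 to 4 (3.12 ± 1.16%, SD, n = 4) and 3.52, 2.07, 1.64, 1.01 and 1.93% in Pot1a wt/wt 1 to 5 (2.03 ± 0.93%, SD, n = 5). Pot1a fl/fl 2 was the highest and Pot1a wt/wt 4 the lowest library, and the groups overlapped, with Pot1a wt/wt 1 above 3 of the 4 Pot1a fl/fl libraries and Pot1a wt/wt 2 above Pot1a fl/fl 4. The difference of the means was 1.09 percentage points, and 0.546 points without Pot1a fl/fl 2.

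Camp was at 15834, 25748, 16960 and 11434 CPM in Pot1a fl/fl 1 to 4 and 19407, 12399, 9579, 5891 and 10862 CPM in Pot1a wt/wt 1 to 5. Ngp was at 5524, 12360, 6806 and 4148 CPM in Pot1a fl/fl and 7754, 4518, 3232, 1750 and 3397 CPM in Pot1a wt/wt libraries. For both genes, only Pot1a fl/fl 2 was above every Pot1a wt/wt library. Log2 fold changes of Pot1a fl/fl over Pot1a wt/wt were 0.64 ± 0.32 (SE) for Camp and 0.86 ± 0.38 for Ngp, with Benjamini-Hochberg adjusted p = 0.639 and 0.566 by edgeR's quasi-likelihood test over 4559 genes. Ltf was at 1158, 2128, 1632 and 1117 CPM in Pot1a fl/fl and 2075, 1223, 1038, 481 and 991 CPM in Pot1a wt/wt libraries. Lcn2 was at 1709, 2451, 1674 and 1286 CPM in Pot1a fl/fl and 2297, 1034, 760, 558 and 1221 CPM in Pot1a wt/wt libraries. In both genes Pot1a wt/wt 1 reached the range of the highest Pot1a fl/fl libraries. Their log2 fold changes were 0.43 ± 0.34 for Ltf and 0.64 ± 0.35 for Lcn2 (edgeR adjusted p = 0.806 and 0.679).

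Hp was the only one of the 10 genes whose groups did not overlap. It was at 391, 459, 285 and 320 CPM in Pot1a fl/fl 1 to 4 (364 ± 77.4, SD, n = 4) and 211, 199, 171, 172 and 216 CPM in Pot1a wt/wt 1 to 5 (194 ± 21.2, SD, n = 5). All genes tested gave 1.27% (58 of 4559) with every Pot1a fl/fl library above every Pot1a wt/wt library. The log2 fold change of Hp was 0.98 ± 0.21, with an unadjusted p of 0.000236 and an adjusted p of 0.215 by edgeR, and DESeq2 gave an adjusted p of 0.0245. Fcnb was at 1027, 1420, 1239 and 500 CPM in Pot1a fl/fl and 465, 378, 507, 345 and 865 CPM in Pot1a wt/wt libraries, so 3 of 4 Pot1a fl/fl libraries were above every Pot1a wt/wt library. Its log2 fold change was 1.11 ± 0.32, with an unadjusted p of 0.00285 and an adjusted p of 0.351 by edgeR. Without a filter on low counts, edgeR called both genes, with an adjusted p of 0.00300 for Fcnb and 0.0377 for Hp. Chi3l3 was at 613, 1935, 628 and 596 CPM in Pot1a fl/fl and 890, 656, 488, 365 and 405 CPM in Pot1a wt/wt libraries. Its log2 fold change of 0.81 ± 0.36 (edgeR adjusted p = 0.566) rested on Pot1a fl/fl 2 and was 0.15 without that library.

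The late genes did not share this direction. Mmp8 was at 301, 117, 218 and 229 CPM in Pot1a fl/fl and 608, 137, 211, 166 and 223 CPM in Pot1a wt/wt libraries. Mmp9 was at 45.1, 28.5, 33.5 and 46.9 CPM in Pot1a fl/fl and 75.5, 22.8, 33.6, 47.5 and 34.9 CPM in Pot1a wt/wt libraries. Retnlg was at 873, 776, 343 and 443 CPM in Pot1a fl/fl and 1451, 157, 424, 276 and 1060 CPM in Pot1a wt/wt libraries. In each of the 3 genes the highest library was Pot1a wt/wt 1, and the groups overlapped throughout. Log2 fold changes were -0.29 ± 0.39 for Mmp8, -0.07 ± 0.37 for Mmp9 and -0.12 ± 0.50 for Retnlg (edgeR adjusted p = 0.891, 0.974 and 0.972), and all 3 were above 0 without Pot1a wt/wt 1.

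**Figure D4:**
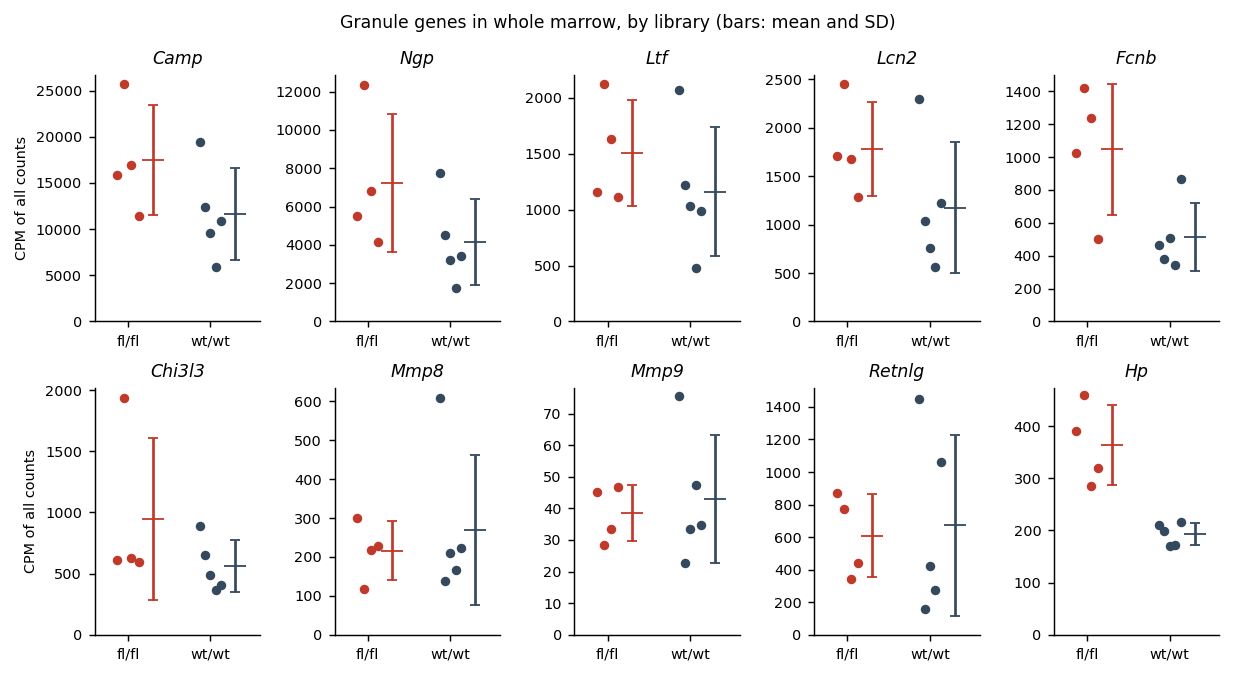
Level of each granule gene in whole marrow (y axis, CPM of all counts of the library), with 1 point for each library in the 4 Pot1a fl/fl (left, red) and the 5 Pot1a wt/wt libraries (right, dark blue), and bars for the mean and SD. All 4 Pot1a fl/fl libraries were above all 5 Pot1a wt/wt libraries for Hp alone.

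Counted together, 0 of the 10 genes were called by edgeR at an adjusted p under 0.05, beside 0.0658% of all genes tested. At an unadjusted p under 0.05 there were 4 of 10 (Hp, Fcnb, Ngp and Chi3l3), beside 7.98% of all genes. With Pot1a wt/wt 2 and 3 as 1 library there were 2 of 10, beside 262 of 4412 genes. Leaving out 1 library at a time gave from 2 of 10 (without Pot1a fl/fl 2, beside 218 of 4928 genes) to 7 of 10 (without Pot1a wt/wt 1, beside 546 of 4531). DESeq2 called 1 of the 10 (Hp). The log2 fold change was above 0 for 7 of the 10, with a median of 0.64, where the median over all genes tested was -0.0017. Without Pot1a wt/wt 1 all 10 were above 0 with a median of 1.01, and without Pot1a fl/fl 2 the median was 0.28. Markers of other cell types in the same sums are given beside these values. The 21 monocyte/macrophage markers found in the tables (of 22 listed, none at 0) summed to 1833 to 2458 CPM in Pot1a fl/fl and 1114 to 1791 CPM in Pot1a wt/wt libraries, which did not overlap. The 29 erythroid markers (of 31, none at 0) summed to 11602 to 54914 CPM in Pot1a fl/fl and 23744 to 92944 CPM in Pot1a wt/wt libraries. The 26 B-lineage markers, none at 0, summed to 2001 to 3307 CPM in Pot1a fl/fl libraries. In Pot1a wt/wt libraries they summed to 2261 to 4876 CPM. The part of these cells in the values of the 10 genes was not tested.

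The share of granulocyte-like cells was higher in Pot1a fl/fl marrow. A share does not tell whether these cells were more or other cells fewer. They were 44, 59, 35 and 33% of the cells in Pot1a fl/fl 1 to 4 (42.8 ± 11.8%, SD, n = 4) and 36, 32, 26, 24.2 and 32% in Pot1a wt/wt 1 to 5 (30.05 ± 4.83%, SD, n = 5). The difference was 12.7 percentage points (two-sided exact permutation p = 0.0476 over 126 regroupings, which can give no p below 0.00794). It did not hold under every setting, with an exact permutation p of 0.114 when Pot1a wt/wt 2 and 3 counted as 1 library and a difference of 7.28 points (exact permutation p = 0.143) without Pot1a fl/fl 2. It did not pass without Pot1a fl/fl 1 (exact permutation p = 0.0893) or without any one of Pot1a wt/wt 2 to 5 (exact permutation p from 0.114 to 0.143). No stage took a share of these cells that differed beyond the spread between libraries. Promyelocyte-like cells were 38.2 ± 4.56% of them in Pot1a fl/fl and 38.2 ± 13.8% in Pot1a wt/wt libraries, myelocyte-like cells 36.5 ± 8.40% in Pot1a fl/fl and 33.6 ± 9.12% in Pot1a wt/wt, and late cells 25.3 ± 4.08% in Pot1a fl/fl and 28.2 ± 7.10% in Pot1a wt/wt (SD, n = 4 and 5; adjusted exact permutation p = 1, 0.964 and 0.964).

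Per count of granulocyte-like cells, the summed level of the 10 genes differed by less than the spread between libraries. They made up 5.37, 7.79, 7.20 and 6.21% of the counts of these cells in Pot1a fl/fl 1 to 4 (6.64 ± 1.07%, SD, n = 4) and 9.47, 7.61, 7.53, 4.18 and 4.59% in Pot1a wt/wt 1 to 5 (6.68 ± 2.23%, SD, n = 5). The share of their whole-marrow counts that lay in these cells was 92.6 to 94.1% in Pot1a fl/fl and 73.5 to 98.3% in Pot1a wt/wt libraries, lowest in Pot1a wt/wt 5. By edgeR 0 of the 10 were called among 1412 genes tested, beside 0.0708% of all genes. At an unadjusted p under 0.05 there was 1 of 10 (Mmp8), beside 4.39% of all genes. The log2 fold change was above 0 for 3 of the 10 (Fcnb 0.30, Hp 0.16 and Ngp 0.11), and the median over the 10 was -0.07, beside 47.1% of all genes tested above 0 and a median of -0.02. This count rested on single libraries: 7 of the 9 granule genes tested were above 0 without Pot1a wt/wt 1 (median 0.16), 6 of 10 without Pot1a fl/fl 1 and 5 of 10 without Pot1a fl/fl 4. Without a count filter 6 of the 10 were above 0, beside 56.2% of all genes.

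Hp and Fcnb, with the largest fold changes in whole marrow, differed less here. Hp was at 721, 683, 625 and 752 CPM in Pot1a fl/fl and 560, 707, 724, 472 and 565 CPM in Pot1a wt/wt granulocyte-like cells, and the groups overlapped (0.16 ± 0.23, edgeR adjusted p = 0.972). Fcnb was at 2105, 2333, 3018 and 1331 CPM in Pot1a fl/fl and 1280, 1378, 2187, 1471 and 2598 CPM in Pot1a wt/wt cells (0.30 ± 0.30, edgeR adjusted p = 0.963). Camp was at 31265, 42938, 41426 and 36076 CPM in Pot1a fl/fl and 52186, 45681, 44418, 25268 and 28307 CPM in Pot1a wt/wt cells. All 4 Pot1a fl/fl libraries lay inside the Pot1a wt/wt range for Camp, whose log2 fold change was -0.09 ± 0.36. Ngp averaged 15144 ± 4104 CPM in Pot1a fl/fl and 13427 ± 6106 CPM in Pot1a wt/wt cells (SD, n = 4 and 5; log2 fold change 0.11 ± 0.38). Ltf averaged 3257 ± 706 CPM in Pot1a fl/fl and 3773 ± 1752 CPM in Pot1a wt/wt cells (-0.27 ± 0.36). Lcn2 averaged 3827 ± 329 CPM in Pot1a fl/fl and 3647 ± 1530 CPM in Pot1a wt/wt cells (-0.01 ± 0.33). Chi3l3 averaged 1889 ± 844 CPM in Pot1a fl/fl and 1894 ± 610 CPM in Pot1a wt/wt cells (-0.05 ± 0.33). Each of these 4 genes had Pot1a fl/fl and Pot1a wt/wt libraries in overlapping ranges, with edgeR adjusted p from 0.967 to 0.999. Whether the whole-marrow and the granulocyte-like fold changes differ was not tested.

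The late genes had the lowest fold changes in granulocyte-like cells. Mmp8 was at 526, 161, 453 and 553 CPM in Pot1a fl/fl and 1520, 451, 927, 580 and 339 CPM in Pot1a wt/wt cells. Retnlg was at 1502, 1067, 453 and 899 CPM in Pot1a fl/fl and 3508, 427, 1709, 729 and 1491 CPM in Pot1a wt/wt cells. Pot1a wt/wt 1 was the highest library for both, and the groups overlapped. Log2 fold changes were -0.99 ± 0.43 for Mmp8 (unadjusted p = 0.0317), -0.81 ± 0.44 for Mmp9 and -0.81 ± 0.47 for Retnlg, each with edgeR adjusted p = 0.963. Without Pot1a wt/wt 1, Mmp8 was at -0.43 and Retnlg at -0.07. That library had 36.1% late cells among its granulocyte-like cells, the largest such share of the 9 libraries, and 13 late cells. Markers of mast cells and basophils (8 of 10 listed were in the tables, 1 of these at 0 in Pot1a fl/fl and none in Pot1a wt/wt) summed to 64.7 to 1107 CPM in Pot1a fl/fl and 101 to 5761 CPM in Pot1a wt/wt granulocyte-like cells. In myelocyte-like and late cells together they summed to 31.0 to 126 CPM in Pot1a fl/fl and 85.2 to 225 CPM in Pot1a wt/wt. The higher values thus came from the promyelocyte-like cluster. Monocyte/macrophage markers summed in granulocyte-like cells to 2048 to 2630 CPM in Pot1a fl/fl and 1717 to 2457 CPM in Pot1a wt/wt cells. Erythroid markers summed to 4607 to 13083 CPM in Pot1a fl/fl and 2868 to 27517 CPM in Pot1a wt/wt cells. B-lineage markers summed to 331 to 709 CPM in Pot1a fl/fl and 290 to 1853 CPM in Pot1a wt/wt cells. The part of such cells in these values was not tested.

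**Figure D5:**
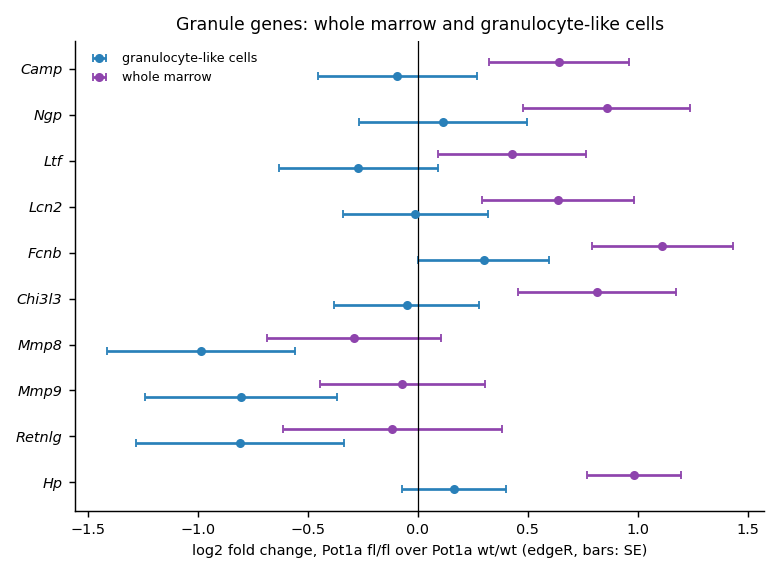
Log2 fold change of each granule gene, Pot1a fl/fl over Pot1a wt/wt (x axis, edgeR, bars for the SE), in whole marrow (purple) and in granulocyte-like cells (blue). In whole marrow 7 of 10 genes were above 0, in granulocyte-like cells 3 of 10 (7 of 9 without Pot1a wt/wt 1), and Mmp8, Mmp9 and Retnlg were lowest in both.

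Stage by stage, few libraries had enough cells. In promyelocyte-like cells, with 4 Pot1a fl/fl and 3 Pot1a wt/wt libraries of at least 10 cells, edgeR tested 851 genes and 6 of the 10, and called 0 of the 6, beside 0.118% of all genes. Retnlg had the largest difference, at 747, 559, 508 and 266 CPM in Pot1a fl/fl 1 to 4 and 24.9, 95.2 and 858 CPM in Pot1a wt/wt 2, 4 and 5. The Pot1a wt/wt libraries lay on both sides of the Pot1a fl/fl ones. The log2 fold change of Retnlg was 0.90 ± 0.67 (edgeR adjusted p = 0.982) with all libraries and 3.10 ± 0.59 (edgeR adjusted p = 0.0152) without Pot1a wt/wt 5, so this library decided it. In Pot1a wt/wt 5, 73.5% of the counts of the 10 genes lay in granulocyte-like cells, the lowest share of any library. These Retnlg levels rest on 22 counts in Pot1a wt/wt 5 and 1 in Pot1a wt/wt 2, against 102 in Pot1a fl/fl 1. They also lie near the background, at 437 ± 319 CPM over libraries in promyelocyte-like and 297 ± 181 CPM in B-lineage cells. The 95% intervals of Retnlg detection in thinned cells overlapped, at 17.2 to 34.3% in promyelocyte-like and 12.4 to 23.4% in B-lineage cells. The part of this background in the Retnlg fold changes was not tested.

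The other 5 genes tested in promyelocyte-like cells had log2 fold changes of 0.65 ± 0.54 (Lcn2), 0.03 ± 0.54 (Ngp), -0.04 ± 0.39 (Hp), -0.25 ± 0.43 (Fcnb) and -0.34 ± 0.44 (Camp), with edgeR adjusted p from 0.982 to 0.996. This cluster also carried the mast cell and basophil markers given above. The part of such cells in its levels and fits was not tested.

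Myelocyte-like and late cells were tested together, since neither had 3 libraries of at least 10 cells in each group. Of 528 genes edgeR called 0 (0% of all genes) and 0 of the 9 granule genes tested, with 19 of the 528 and 0 of the 9 at an unadjusted p under 0.05. DESeq2 called 0 of the 9 as well. Log2 fold changes ran from -0.78 ± 0.46 (Mmp8) to 0.40 ± 0.31 (Fcnb), with a median of 0.05 beside 0.01 over all genes tested, and 6 of the 9 were above 0. Between these lay Retnlg (-0.73 ± 0.50), Ltf (-0.12 ± 0.27), Camp (0.01 ± 0.15), Chi3l3 (0.05 ± 0.25), Lcn2 (0.16 ± 0.22), Ngp (0.25 ± 0.22) and Hp (0.39 ± 0.23). With the minimum lowered to 5 cells, a choice made after seeing the data, all 9 libraries entered the fits of each stage, and 0 granule genes were called by edgeR in any stage. A difference between the stages in the effect of genotype, tested in the same way with the library as a block, was called for 0 of 319 genes (0% of all genes) and 0 of the 10, with 0 of the 10 at an unadjusted p under 0.05. Estimates of that difference, late minus myelocyte-like, ran from -0.66 ± 0.70 (Retnlg) to 0.50 ± 0.59 (Chi3l3) on the log2 scale.

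Other granulocyte genes were taken from lists chosen with earlier results of these data known. In whole marrow all 14 primary granule genes tested (of 15 listed) had a log2 fold change above 0 with a median of 1.04, beside 49.7% of all genes tested above 0. At an unadjusted p under 0.05 there were 13 of the 14, beside 7.98% of all genes, and 0 were called by edgeR. The largest were Prtn3 (1.396 ± 0.325), Gstm1 (1.31 ± 0.41), Mpo (1.23 ± 0.33) and Ctsg (1.20 ± 0.34), with adjusted p from 0.292 to 0.371. All 19 tested genes of other secondary and tertiary granule or membrane proteins (of 28 listed) were above 0 with a median of 0.82, 10 at an unadjusted p under 0.05 and 0 called, led by Fpr2 (1.42 ± 0.42), a formyl peptide receptor, and Lrg1 (1.11 ± 0.46). Of the cytosolic S100 proteins and stefins, 10 of 11 tested were above 0 (median 0.62, 1 at an unadjusted p under 0.05, 0 called), with S100a8 at 0.82 ± 0.36. Among the regulators 4 of 8 tested were above 0 (median 0.03, 2 at an unadjusted p under 0.05, 0 called), with Cebpb at 1.03 ± 0.26, Spi1 at 0.88 ± 0.25 and Cebpe at 0.59 ± 0.46.

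In granulocyte-like cells the medians of these lists were 0.30 for 12 primary granule genes, 0.05 for 17 other granule and membrane genes, -0.02 for 11 S100 proteins and stefins and -0.10 for 4 regulators, with 0 called in each by edgeR and 0 at an unadjusted p under 0.05. Prtn3 was at 0.53 ± 0.31 and Cebpe at -0.27 ± 0.36 there. The primary granule list was the only one with every tested gene above 0 in these cells (12 of 12), where the other granule and membrane list had 9 of 17.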

How the data were processed

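For each of the 9 Drop-seq libraries (4 Pot1a fl/fl and 5 Pot1a wt/wt), the authors deposited a table of counts, whole numbers with genes in rows and 100 barcodes in columns. Per the labels and the study's methods, reads were aligned to mm10 with STAR and counted with the Drop-seq software. The sources used here give neither versions nor the annotation, and do not say how the 100 barcodes were chosen or whether molecules or reads were counted. Repeat reads of a molecule would make counting intervals too narrow. A symbol absent from a table was taken as a count of 0.

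Cells with under 200 counts or over 25% mitochondrial counts were removed (1 of 900). Cells were integrated over libraries and clustered in Seurat 5.3.0 (R 4.3.3; 2000 features without the 10 genes, resolution 1). To name a cluster, its genes detected in 20% or more of its cells were ranked by fold, and the class with the most listed markers in the top 50 was taken, provided that 3 or more were there. The 5% of cells with the highest Scrublet scores (scanpy 1.11.5; 45 cells) were kept, and removed in an alternative.

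Counts were summed by library over all cells, granulocyte-like cells or a stage (at least 10 cells, at least 3 libraries in each group) and tested by edgeR 4.0.16 (TMM, filterByExpr, quasi-likelihood, Benjamini-Hochberg over all genes tested, adjusted p under 0.05). The SE given with an edgeR log2 fold change was its absolute value divided by the square root of the F statistic of the test. It was not a fitted standard error. Shares of cells were compared by two-sided exact permutation tests over libraries (scipy 1.17.1, Python 3.11.15). The fits were tested on simulated data. Alternatives were DESeq2 1.42.0, limma 3.58.1 on scaled cells, RLE normalization, no count filter, every barcode kept, other clusterings (resolution 0.6 and 1.4, no integration, the 10 genes among the features), doublets removed, sex as a term, a replicate block, Pot1a wt/wt 2 and 3 as 1 library, and each library left out in turn. The limits of 5 cells, and the pooling of myelocyte-like and late cells, were chosen after seeing the data.

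Of the 10 genes, every one that was tested is named in the comparisons of genotypes in whole marrow, granulocyte-like cells, promyelocyte-like cells, and myelocyte-like and late cells together. The fits with at least 5 cells are given as counts and ranges. From the other lists, up to 4 tested genes with the largest absolute log2 fold change were eligible, beside Spi1, Cebpe and Gfi1, and the gene most like each of the 10. The 10 genes, the lists and the tests were chosen with earlier results of these data known, so no pattern here is independent of them.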

Additional observations from a re-analysis of the deposited data

Results flagged for a closer look

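Among 40 groups of libraries checked (10 genes, 2 kinds of sum, 2 genotypes), 3 held a library far from the rest by Dixon's criterion, and chance alone flags about 1 in 20 groups. In whole marrow, Chi3l3 was at 1935 CPM in Pot1a fl/fl 2, where the next Pot1a fl/fl library was at 628 CPM. Mmp8 in whole marrow was at 608 CPM in Pot1a wt/wt 1, and the next Pot1a wt/wt library was at 223 CPM. In granulocyte-like cells, Lcn2 was at 3339 CPM in Pot1a fl/fl 1, below the next Pot1a fl/fl library at 3933 CPM.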

How the results depend on the processing

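Without a count filter, which moved the median over all genes by under 0.1 in whole marrow but to 0.13 in granulocyte-like cells, 2 of the 10 genes were called in whole marrow (edgeR adjusted p = 0.00300 for Fcnb and 0.0377 for Hp), and DESeq2 called 1 (Hp). Over all genes, edgeR called 46 higher and 23 lower in Pot1a fl/fl marrow without the filter against 3 in all with it, and DESeq2 4 higher and 2 lower. In granulocyte-like cells it called 3 higher and 12 lower without the filter against 1 higher with it. Leaving out 1 library at a time called 0 to 1 gene in promyelocyte-like cells, and 0 to 1 with at least 5 cells. Replicate numbers did not pair the libraries (correlations of deviations -0.16 to 0.01 over 4 pairs, with 0 of 8 libraries closest to its own number), and with the replicate block 1 of the 10 was called in promyelocyte-like cells of at least 5 (Retnlg, edgeR adjusted p = 0.0226) and 0 in whole marrow.

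The share of granulocyte-like cells differed by 12.6 points with Pot1a wt/wt 2 and 3 as 1 library (exact permutation p = 0.114), 12.6 without doublets (0.0635), 12.8 at resolution 0.6 (0.0556) and 7.28 to 16.0 points with 1 library left out.

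No log2 fold change that changed sign was called in either fit, and the cause was not tested. In whole marrow these were Mmp9 without doublets (0.20), and Retnlg with the replicate block (0.51), sex as a term (0.0018) and limma (0.18). In granulocyte-like cells they were Camp (0.0108), Lcn2 (0.10) and Chi3l3 (0.0829) without a count filter, Lcn2 with the block (0.0380) and Ngp without integration (-0.0435). In promyelocyte-like cells they were Camp (0.28) and Hp (0.11) with the block, Ngp without doublets (-0.0734), and Hp without a filter (0.13) and with the 10 genes among the clustering features (0.0184). In myelocyte-like and late cells together, Camp was at -0.0203 with the block, -0.0828 without doublets, -0.0183 with the 10 genes as features, -0.10 without integration and -0.0033 at resolution 0.6. Ltf was there at 0.0685 without a filter and Chi3l3 at -0.0742 with the block.

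With 1 library left out, whole-marrow ranges were -0.51 to 0.34 (Mmp8), -0.27 to 0.27 (Mmp9) and -0.39 to 0.46 (Retnlg). In granulocyte-like cells they were -0.22 to 0.15 (Camp), -0.0570 to 0.47 (Ngp), -0.45 to 0.0566 (Ltf), -0.15 to 0.40 (Lcn2) and -0.40 to 0.16 (Chi3l3). In promyelocyte-like cells they were -0.81 to 0.0252 (Camp), -0.52 to 0.65 (Ngp), -0.67 to 0.42 (Fcnb), 0.26 to 3.10 (Retnlg) and -0.35 to 0.19 (Hp), and in myelocyte-like and late cells together -0.0631 to 0.0568 (Camp) and -0.13 to 0.17 (Chi3l3). The difference in promyelocyte-like share, Pot1a fl/fl minus Pot1a wt/wt, was 1.49 points with the 10 genes as features, 4.03 without integration, 0.0609 at resolution 0.6 and -5.38 to 3.73 with 1 library left out. The difference in myelocyte-like share was -0.159 with the 10 genes as features, -0.0609 at resolution 0.6 and -0.76 to 6.30 with 1 library left out. In all, 166 whole-marrow, 167 granulocyte-like, 73 promyelocyte-like and 159 pooled values of single genes kept their sign and their side of the threshold, and 11, 19, 13 and 12 changed sign.

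A genotype-by-stage fit with at least 10 cells was not run, since 3 libraries had both stages. Late-stage means could not be had at resolution 0.6 or with the 10 genes as features. Low counts limit Mmp9 most, and stages of under 10 cells in 4 of 9 libraries limit the values of late and of myelocyte-like cells.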

Other observations

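Retnlg was also counted in the cluster of mesenchymal and bone-like cells, which held 33 cells, 13 of them from Pot1a wt/wt 5. There Retnlg had 42 counts, or 776 CPM over the cluster, and was detected in 58.8% of the 17 cells deep enough for thinning to 1000 counts.

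By genotype, thinned cells had a median of 2 of the 10 genes in Pot1a fl/fl (60 cells) and 1 in Pot1a wt/wt (48 cells) promyelocyte-like cells, and 7 in Pot1a fl/fl (59 cells) and 6 in Pot1a wt/wt (47 cells) myelocyte-like cells. The median was 7 in late cells of both genotypes. Of the cells taken as background, erythroid cells had 2 in Pot1a fl/fl (45 cells) and 1 in Pot1a wt/wt (97 cells), and B-lineage cells had 1 in both Pot1a fl/fl (84 cells) and Pot1a wt/wt (117 cells). These differences were not tested.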
